A study of Mus musculus with 6 samples.

Results

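The genes described here serve protein folding and disposal in the endoplasmic reticulum (ER) of the liver. They comprise 32 genes chosen by symbol: 4 stress sensors and transcription factors, 12 chaperones and cofactors, 4 disulfide isomerases, 9 genes of ER-associated degradation and 3 of translocation. On the Affymetrix genome-wide mouse array they were read by 82 probe sets with exactly 1 annotated gene symbol, among 45101 probe sets in all. The table named 18194 genes in this way. Livers of male BALB/c mice were compared at 10 weeks of age, with 3 arrays from mice kept singly for 30 days and 3 arrays from controls. All mice were bought at 4 weeks of age and group-housed at 5 per cage for 10 days before isolation began. Isolated mice also received less bedding than controls, so the effects of single housing and of sparse bedding cannot be told apart. How controls were caged over the 30 days was not given in the sources used here. The samples are numbered within each group but are not stated to be separate mice, so p-values measure the spread between these samples, which may be partly technical. No genotype, drug or diet differed between the groups, per the labels.

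Proteins bound for secretion enter the ER through the Sec61 channel, fold with the help of chaperones and disulfide isomerases, and are sent back to the cytosol for destruction if folding fails. Unfolded protein in the ER is sensed by the membrane proteins encoded by Atf6, Ern1 (IRE1) and Eif2ak3 (PERK), which raise chaperone and degradation genes and slow translation. This unfolded protein response is well known in hepatocytes, which secrete albumin, clotting factors and lipoproteins. It is also engaged by feeding, insulin and lipid load.

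The deposited values are MAS5 signals, a linear brightness per probe set. Array medians ran from 18.4 to 21.9 in isolated mice and from 18.4 to 22.1 in controls. The ratio of the 3′ to the 5′ control probe set was 0.689 to 0.695 in isolated mice and 0.692 to 0.719 in controls for Gapdh, and 1.99 to 2.35 and 2.14 to 2.32 for Actb. Summed signals of 6 hepatocyte markers were 45811 to 50140.0 in isolated mice and 45423 to 49809 in controls, so the labelled tissue was borne out on every array. Log2 changes below are isolated minus control on the log2(signal + 2) scale, and a call is an adjusted p under 0.05 in limma over all 22519 probe sets above a floor on the mean. In this fit 174 probe sets were higher and 193 lower, or 258 and 183 with each array centred on its median.

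Isolated livers had higher transcript levels of Creld2, Syvn1, Manf and Hspa5. These encode an ER-resident calcium-binding protein, the ubiquitin ligase of ER-associated degradation (HRD1), a secreted and ER-retained neurotrophic factor, and the main ER chaperone BiP. They were 4 of 32 member genes, or 12.5%, whereas 0.901% of 10986 tested genes were called higher. The 4 called genes lay at percentiles 87.0 to 99.2 of mean signal among tested genes, and these shares were not matched for brightness. No member was called lower by limma, against 0.847% of all genes. All 32 members passed the floor, which was set on the mean over both groups. Of the 28 that were not called, 25 had log2 changes above 0 and 3 below. Log2 changes were above 0 for 90.6% of all members and 58.4% of all tested genes. The median log2 change over the members was 0.28, against 0.052 over all tested genes. Signals on all 3 isolated arrays lay above all 3 control arrays for 12 members, or 37.5%, against 10.8% of all genes, and below them for 0 members, against 5.17% of all genes. At an unadjusted p under 0.05, 12 members were higher and 0 lower, against 7.94% and 4.4% of all tested genes. By role, the median log2 change was 0.39 for chaperones, 0.28 for translocation genes, 0.26 for degradation genes, 0.25 for disulfide isomerases and 0.071 for sensors. Whether the roles differed from each other was not tested.

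**Figure D1:**
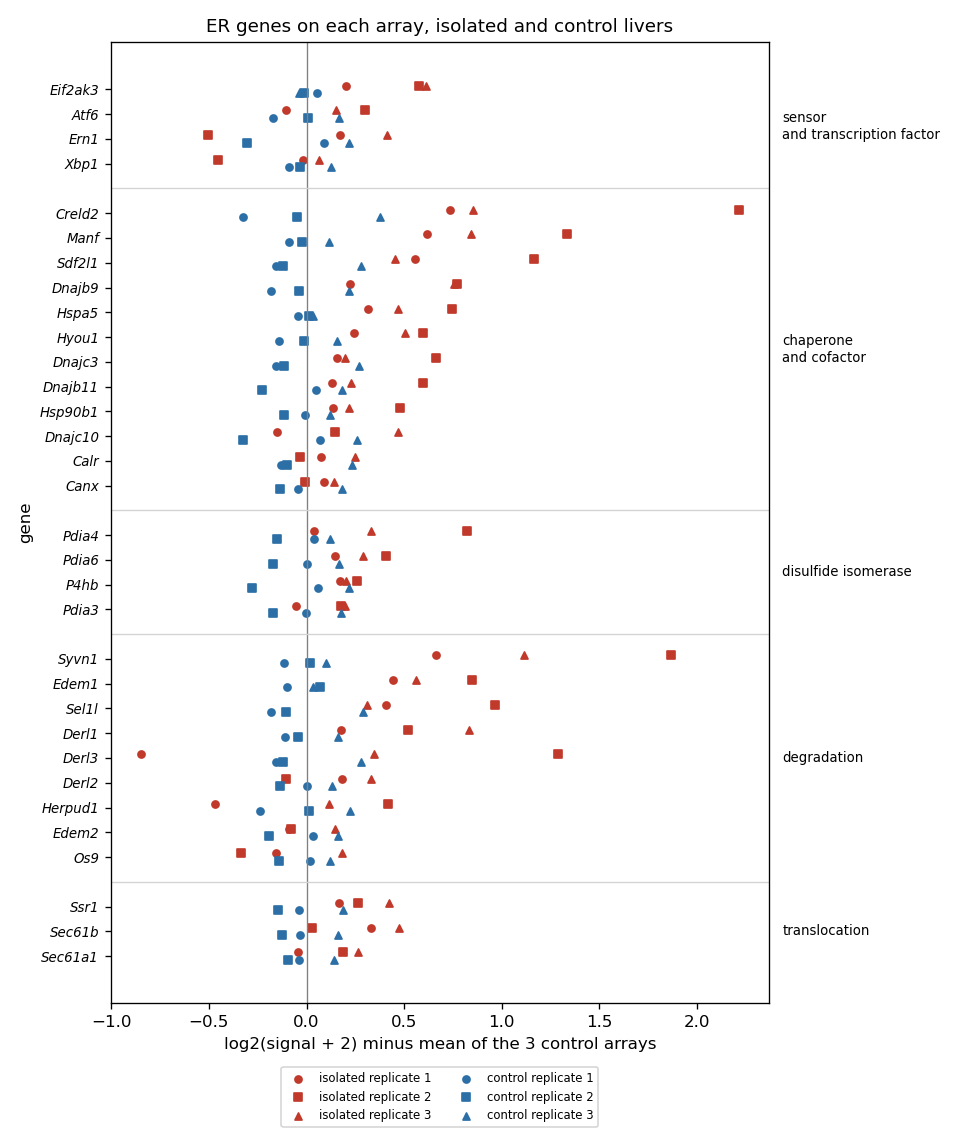
Each row is a member gene, and each point is 1 array, given as log2(signal + 2) minus the mean of the 3 control arrays for that gene, in red for isolated and blue for control mice. The red points of Creld2, Manf, Syvn1 and Hspa5 all lie to the right of their blue points, and isolated replicate 2 (red square) lies farthest right for 18 of the 32 genes.

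Among the chaperones and cofactors, 3 of 12 genes rose and 9 were not called. All 12 had log2 changes above 0, as did 58.4% of all tested genes. Creld2 signals were 1235, 3451 and 1339.6 in isolated mice, against 592, 716 and 961 in controls. All 3 isolated arrays exceeded all controls, and isolated replicate 2 was the highest by far. Creld2 averaged 2008 ± 1250.2 in isolated mice and 756 ± 188 in controls (SD, n = 3 each), a 2.41-fold rise with a log2 change of 1.27 ± 0.27 (SE, limma adjusted p 0.0146). The log2 change of Creld2 was 0.79 without isolated replicate 2, where the call held (adjusted p 0.0199). Manf signals were 2805, 4622 and 3278 in isolated mice, against 1719, 1799.9 and 1980.2 in controls. The groups did not overlap for Manf, which rose 1.91-fold with a log2 change of 0.93 ± 0.16 (SE, limma adjusted p 0.00199). Hspa5 signals were 6879, 9267 and 7658 in isolated mice, against 5364, 5573 and 5649 in controls. The 3 controls lay close together and below every isolated array. Hspa5 rose 1.42-fold with a log2 change of 0.51 ± 0.12 (SE, limma adjusted p 0.0339). Its second probe set was also called, at 0.60 on the log2 scale with a limma adjusted p of 0.0146, and the third, dimmer one had a log2 change of 0.50 with a limma adjusted p of 0.317. The Hspa5 call was lost without isolated replicate 2 (adjusted p 0.0732) or 3 (0.0942), or control replicate 1 (0.126), 2 (0.1) or 3 (0.0763), with log2 changes of 0.39 to 0.61 over the 6 fits with 1 array left out.

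The calls on these genes also depended on the variance model, the filter and the scaling. Without a trend of the variance on intensity, limma called none of the 4 genes (adjusted p 0.184 for Manf, 0.186 for Syvn1, 0.277 for Creld2 and 0.36 for Hspa5), with 11 members higher at an unadjusted p under 0.05. With a robust trend, Creld2 was not called (adjusted p 0.47), nor without a filter on low signals (0.117) or with quantile normalization (0.128). Hspa5 was not called without a filter (adjusted p 0.346), with quantile normalization (0.0585), with median centring (0.0504) or with its probe sets averaged (0.0621), and Syvn1 was not called with quantile normalization (0.0621).

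**Figure D2:**
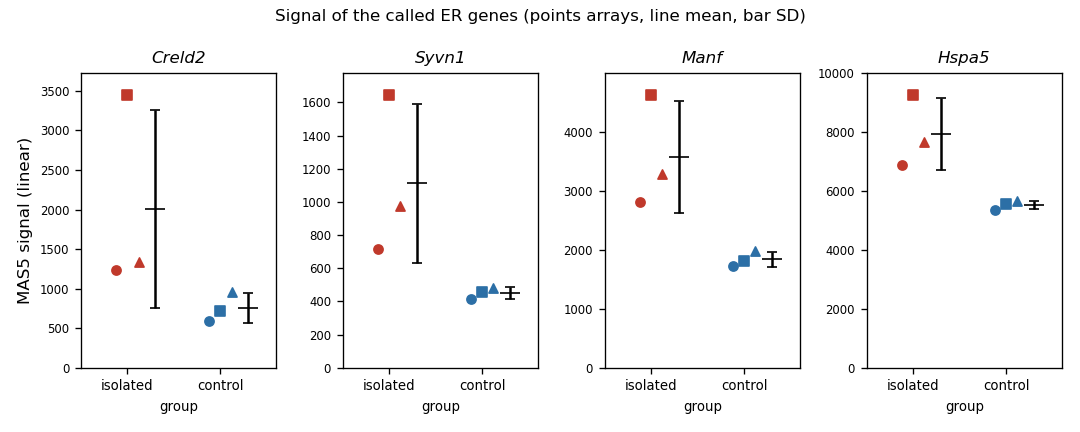
MAS5 signal (linear axis from 0) of Creld2, Syvn1, Manf and Hspa5 in isolated and control livers, with circles, squares and triangles for replicates 1, 2 and 3, a horizontal line for the mean and a bar for the SD (n = 3 each). No isolated point overlaps the controls in any of the panels, and isolated replicate 2 is the highest point in each.

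The other 9 chaperone genes were not called. Dnajb9 (ERdj4), a J-domain partner of BiP, had signals of 2507, 3666 and 3633 in isolated mice, against 1897, 2094 and 2503 in controls, with no overlap between the groups. Its log2 change of 0.58 ± 0.15 (SE, limma adjusted p 0.0635) did not pass the threshold. Among the fits with 1 array left out, Dnajb9 was called only without isolated replicate 1 (limma adjusted p 0.00667). The other such fits gave adjusted p of 0.0578 to 0.253. Sdf2l1, a stromal cell-derived factor-like protein that binds BiP and its J-domain partners, read 101, 155 and 93.8 in isolated mice, against 60.7, 62.3 and 82.8 in controls. The isolated arrays again lay above the controls, with a log2 change of 0.72 ± 0.23 (SE, limma adjusted p 0.139). Hyou1 (GRP170), a nucleotide exchange factor of BiP, read 782, 1003 and 938 in isolated mice, against 599, 655 and 738 in controls. Its isolated arrays lay above the controls, with a log2 change of 0.45 (limma adjusted p 0.199). Hsp90b1 (GRP94), the ER member of the HSP90 family, read 4304, 5467 and 4549 in isolated mice, against 3900.0, 3616 and 4263 in controls. The groups of Hsp90b1 did not overlap either, at a log2 change of 0.28 (limma adjusted p 0.404), and its probe sets ran from 0.28 to 0.49. The J-domain proteins Dnajc3 (p58IPK), Dnajb11 (ERdj3) and Dnajc10 (ERdj5, a disulfide reductase) had log2 changes of 0.34, 0.32 and 0.15 with overlapping groups. The lectin chaperones, which hold glycoproteins during folding, showed the smallest changes of the 12 in these data, on the probe sets that represent the genes. Calr (calreticulin) read 4274 ± 419.7 in isolated mice and 4012 ± 587 in controls (SD, n = 3 each), a log2 change of 0.10 (limma adjusted p 0.872). Canx (calnexin), its membrane-bound partner, read 2139 ± 110.3 in isolated mice and 2038 ± 238 in controls (SD, n = 3 each), a log2 change of 0.074 (limma adjusted p 0.914). With probe sets averaged, the log2 changes were 0.16 for Calr, 0.041 for Canx and 0.086 for Dnajc10.

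None of the 4 sensors and transcription factors was called by limma, and 1 was higher at an unadjusted p under 0.05. That gene was Eif2ak3, the kinase that slows translation by phosphorylating eIF2alpha. Its signals were 109, 142 and 145 in isolated mice, against 97.8, 93.5 and 91.7 in controls. Controls were tightly grouped below the isolated arrays, and the log2 change of 0.46 ± 0.19 (SE, limma adjusted p 0.339) did not pass. Atf6, a membrane-bound factor that is cut free under stress, had a log2 change of 0.11 (limma adjusted p 0.895). Ern1, the kinase and endonuclease that splices Xbp1 mRNA, had one of 0.026 (limma adjusted p 0.984). Xbp1, the transcription factor made from that spliced mRNA, read 4979.6, 3671 and 5259 in isolated mice, against 4725, 4914 and 5499 in controls. The groups overlapped, and isolated replicate 2, the highest array for Creld2, Manf, Hspa5 and Syvn1, was the lowest for Xbp1. Its log2 change of -0.14 ± 0.14 (SE, limma adjusted p 0.808) had no call, and its 4 probe sets ran from -0.26 to -0.014. Whether these probe sets separate spliced from unspliced Xbp1 mRNA was not given in the sources used here, and the arrays do not read cleavage of ATF6 or phosphorylation of the kinases.

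The 4 disulfide isomerases, which form and reshuffle disulfide bonds in folding proteins, had no call by limma and 0 members at an unadjusted p under 0.05. Their log2 changes were 0.40 for Pdia4 (ERp72), 0.28 for Pdia6 (P5), 0.21 for P4hb (protein disulfide isomerase itself) and 0.11 for Pdia3 (ERp57, which works with the lectin chaperones). The adjusted p of these genes ran from 0.471 to 0.865 in limma, and the groups overlapped for all 4 on the probe set that represents the gene. A second, dimmer probe set of Pdia6 had no overlap, at a log2 change of 0.74 (limma adjusted p 0.185). Pdia4 read 121, 209.8 and 149 in isolated mice, against 121, 106 and 128 in controls. Isolated replicates 2 and 3 were the highest and isolated replicate 1 lay within the control range. P4hb signals were 3609, 3839 and 3699 in isolated mice, against 3347, 2649 and 3732 in controls. Control replicate 3 lay within the isolated range, and without control replicate 2, the lowest array, the log2 change was 0.072.

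In ER-associated degradation, 1 of 9 genes rose and 8 were not called. Syvn1 encodes the membrane ubiquitin ligase at the core of the pathway, and its signals were 714, 1646 and 975 in isolated mice, against 414, 456 and 482 in controls. Every isolated array was above every control, with isolated replicate 2 the highest. Syvn1 averaged 1112 ± 481 in isolated mice and 451 ± 34.1 in controls (SD, n = 3 each), a 2.32-fold rise with a log2 change of 1.21 ± 0.22 (SE, limma adjusted p 0.00326). Its log2 change was 0.89 without isolated replicate 2 (adjusted p 0.00659). The second probe set of Syvn1 read 381, 1000.1 and 379 in isolated mice, against 244, 275 and 262 in controls. It had a log2 change of 1.01 with a limma adjusted p of 0.0551, and again no overlap.

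Partners of Syvn1 were also measured. Sel1l, the adaptor that stabilises the ligase, read 942, 1384 and 879.5 in isolated mice, against 624, 658 and 868 in controls, with no overlap and a log2 change of 0.56 ± 0.18 (SE, limma adjusted p 0.152). Edem1, a lectin that hands over misfolded glycoproteins, read 654, 865 and 709 in isolated mice, against 449, 503 and 492 in controls. These groups did not overlap either, and the log2 change of 0.62 ± 0.16 (SE, limma adjusted p 0.0543) lay just outside the threshold. The second probe set of Edem1 stood at 0.0075 on the log2 scale with a limma adjusted p of 0.994, so the probe sets of Edem1 disagreed. Edem2, of the same family, had a log2 change of -0.0078. Derl1, 1 of 3 derlins that sit in the ER membrane beside the ligase, read 592, 754 and 934 in isolated mice, against 485, 508 and 586 in controls. The groups did not overlap for Derl1, at a log2 change of 0.51 (limma adjusted p 0.188). Derl2 had a log2 change of 0.14 (limma adjusted p 0.828). A second, dimmer probe set of Derl2 had no overlap, at a log2 change of 0.46 (limma adjusted p 0.273). Derl3 read 42.0, 192 and 98.7 in isolated mice, against 69.2, 70.9 and 94.3 in controls. Its isolated arrays spanned from below to above all controls, and its log2 change of 0.26 was -0.25 without isolated replicate 2 and 0.81 without isolated replicate 1. Herpud1, a membrane component that links the ligase to the derlins, read 2677, 4964 and 4019 in isolated mice, against 3149, 3744 and 4337 in controls. The isolated arrays again straddled the controls, with a log2 change of 0.021 (limma adjusted p 0.984). Os9, a lectin that inspects glycans of misfolded proteins, had a log2 change of -0.10 (limma adjusted p 0.903).

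The 3 translocation genes had no call by limma and 0 at an unadjusted p under 0.05, on the probe sets that represent them. Sec61a1, the channel itself, had a log2 change of 0.14 (limma adjusted p 0.814). Its probe sets ran from -0.088 to 0.72, and the dimmest, at 0.72, had no overlap (limma adjusted p 0.144). Sec61b, a small subunit of the channel, read 1455, 1179.7 and 1608 in isolated mice, against 1130.2, 1061 and 1295 in controls. Isolated replicate 2 lay within the control range, and the log2 change was 0.28 (limma adjusted p 0.535). Ssr1, of the translocon-associated protein complex, had a log2 change of 0.28 (limma adjusted p 0.502), and its isolated and control arrays overlapped on that probe set. The probe sets of Ssr1 ran from 0.093 to 0.61, and the dimmest, at 0.61, had no overlap (limma adjusted p 0.475). Another dim one had a log2 change of 0.53 (limma unadjusted p 0.0444) with overlap.

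**Figure D3:**
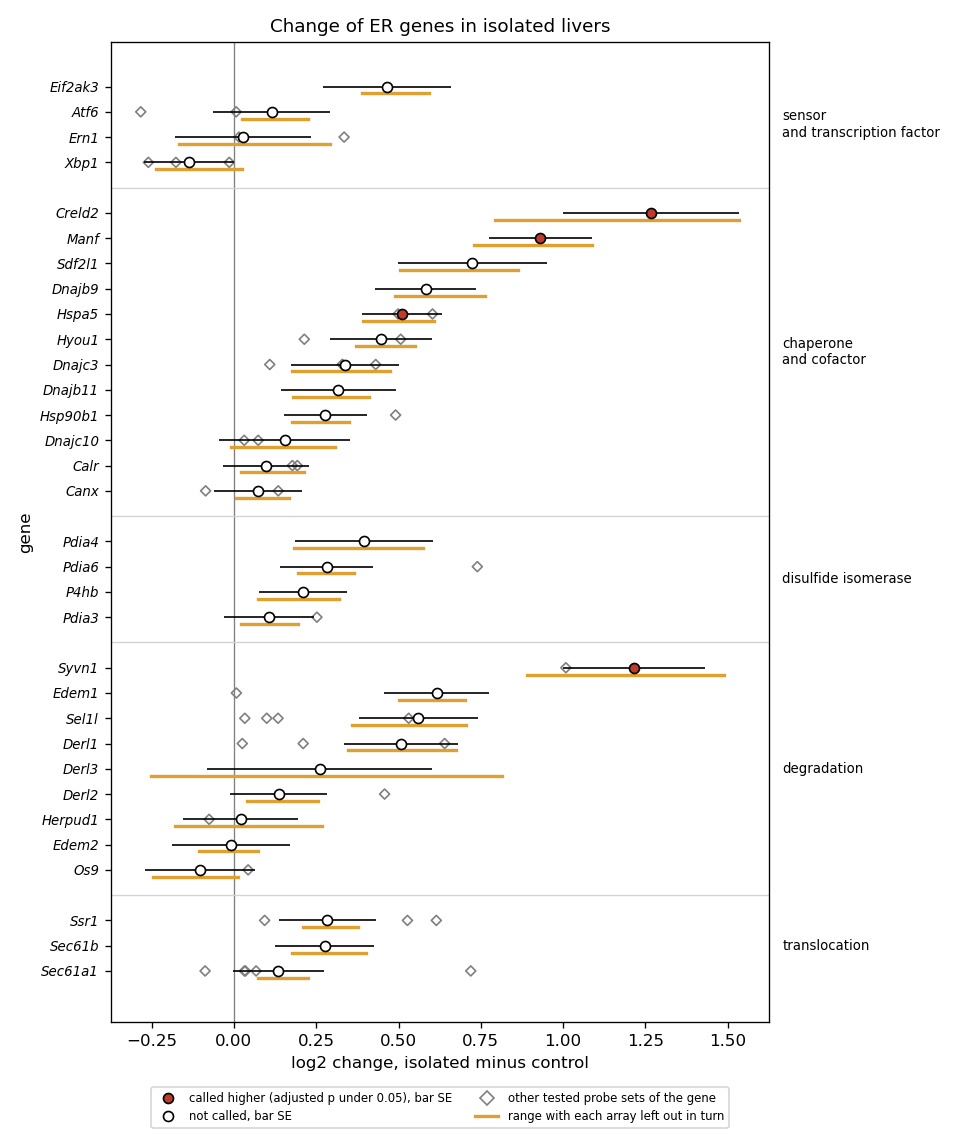
Log2 change (isolated minus control) of each member with its SE, filled in red where limma called it, with open diamonds for other tested probe sets of the gene and an orange bar for the range when each array in turn was left out. The red points are Creld2, Manf, Hspa5 and Syvn1, and the orange bars of Derl3, Dnajc10, Edem2, Ern1, Herpud1, Os9 and Xbp1 cross 0.

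Different probe sets of a gene did not always change alike. Of the 82 member probe sets, 76 passed the floor. Log2 changes were above 0 for 66 of these, and for 55.4% of all tested probe sets. Of the 76, 5 were called higher, against 0.773% of all tested probe sets, and 0 lower. Among 21 members with more than 1 tested probe set, 5 had log2 changes that differed by over 0.5. The probe sets of Sec61a1 ran from -0.088 to 0.72, those of Derl1 from 0.025 to 0.64 and those of Ssr1 from 0.093 to 0.61. Those of Edem1 ran from 0.00745 to 0.62, and those of Sel1l from 0.033 to 0.56. The transcript forms read by each probe set were not analysed here.

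Promoters of the members were searched for the ER stress element (ERSE), spelled CCAAT, then 9 bases of any kind, then CCACG, because it is the textbook site through which ATF6 and XBP1 act together with the CCAAT-binding factor NF-Y. RefSeq promoter windows of build GRCm38.p6, from 250 bases before to 50 after a gene's start, were at hand for 27 of the 32 members. Manf, Hyou1, Derl1, Sec61a1 and Atf6 had no entry. An exact match on either strand was found for 9 of the 27 members, or 33.3%, against 37 of 27025 genes with an entry, or 0.137%. These shares describe the reference genome and members that were chosen as ER genes. No array value enters them, so they say nothing about isolation. The 3 called genes with an entry, Creld2, Syvn1 and Hspa5, were among the 9. Their 250 bases before the start are shown because these genes rose, with the fixed letters of the ERSE in capitals, on the reference genome and reading towards the gene.
Hspa5, chr2:34771840-34772089, plus strand: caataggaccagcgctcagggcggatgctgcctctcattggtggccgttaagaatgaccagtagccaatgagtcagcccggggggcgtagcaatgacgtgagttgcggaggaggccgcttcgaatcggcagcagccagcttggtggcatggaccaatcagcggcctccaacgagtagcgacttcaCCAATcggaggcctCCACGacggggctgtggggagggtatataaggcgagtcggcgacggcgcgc
Creld2, chr15:88819396-88819645, plus strand: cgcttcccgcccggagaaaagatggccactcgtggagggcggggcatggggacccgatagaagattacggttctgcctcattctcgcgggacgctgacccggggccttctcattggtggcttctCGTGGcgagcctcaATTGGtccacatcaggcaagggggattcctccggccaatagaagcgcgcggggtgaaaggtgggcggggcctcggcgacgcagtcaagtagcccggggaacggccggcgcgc
Syvn1, chr19:6046326-6046575, plus strand: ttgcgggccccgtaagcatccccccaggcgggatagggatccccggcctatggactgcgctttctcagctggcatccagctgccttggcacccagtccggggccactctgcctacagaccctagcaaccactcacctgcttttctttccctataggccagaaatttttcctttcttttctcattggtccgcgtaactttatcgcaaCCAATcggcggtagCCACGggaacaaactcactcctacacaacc
In Creld2 the element lies on the opposite strand, so that its letters read CGTGG and ATTGG. It spans 108 to 126 bases before the start in Creld2, 47 to 65 in Hspa5 and 26 to 44 in Syvn1.

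The elements of the 9 genes, each written on the strand that reads CCAAT first, show how the 9 inner bases vary while the capitals stay fixed.
Hspa5, 47 to 65 bases before the start: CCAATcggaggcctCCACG
Creld2, 108 to 126 bases before the start: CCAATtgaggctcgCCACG
Syvn1, 26 to 44 bases before the start: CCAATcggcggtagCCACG
Dnajc3, 87 to 105 bases before the start: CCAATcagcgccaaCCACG
Pdia6, 80 to 98 bases before the start: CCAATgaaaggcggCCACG
Hsp90b1, 194 to 212 bases before the start: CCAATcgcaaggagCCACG
Hsp90b1, 89 to 107 bases before the start: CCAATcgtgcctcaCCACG
Derl3, 138 to 156 bases before the start: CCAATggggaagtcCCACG
Calr, 144 to 162 bases before the start: CCAATgagggtcgaCCACG
Canx, 127 to 145 bases before the start: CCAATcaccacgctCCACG
Hsp90b1 held 2 elements. The log2 changes of these 9 genes ran from 0.074 for Canx to 1.27 for Creld2, with a median of 0.28 and 3 calls. The 18 members with an entry and no match had a median of 0.24 and 0 calls by limma. Among the 9, Calr and Canx had the lowest log2 changes, 0.10 and 0.074. Among the 18, Sdf2l1, Edem1 and Dnajb9 had the highest, 0.72, 0.62 and 0.58, and none of them was called. Whether members with and without an element differed was not tested. Outside the members, 28 genes held an element, of which 7 were tested, with 0 calls higher by limma and a median of 0.24.

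The related element ERSE-II, spelled ATTGG, then 1 base of any kind, then CCACG, was matched in 2 of the 27 members, or 7.41%, against 0.0444% of all genes with an entry.
Herpud1, 42 to 52 bases before the start: ATTGGgCCACG
Dnajb11, bases 8 to 18 of the transcript: ATTGGcCCACG
Neither gene was called. The core TGACGTGG of the unfolded protein response element was matched in 0 of the 27 members, in 6 of 81 further genes of these pathways with an entry, or 7.41%, and in 0.714% of all genes. The ERSE was matched in 1 of those 81, or 1.23%, and ERSE-II in 0. The parts of the ERSE were common on their own, with CCAAT in 77.8% of members and 41.1% of all genes and CCACG in 81.5% and 35.5%. Both parts lie within the ERSE, and CCACG and the reverse complement of CCAAT within ERSE-II, so the counts overlap. A match describes letters in a window and no binding was measured.

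**Figure D4:**
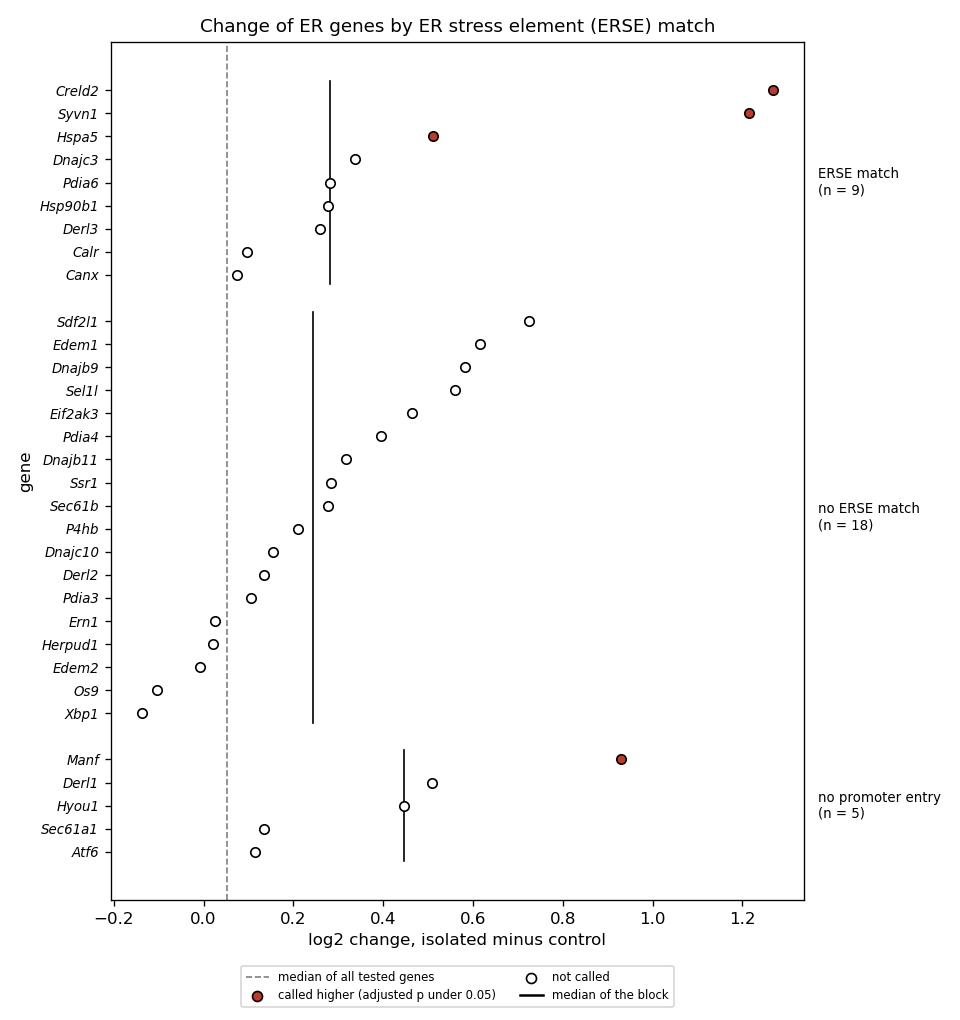
Log2 change (isolated minus control) of each member, grouped by whether its RefSeq promoter window held an exact ERSE match (9 genes), held none (18) or had no entry (5), with a black line at the median of each block and a dashed line at the median of all tested genes. Calls (red) fall on Creld2, Syvn1 and Hspa5 in the first block and Manf in the last, and Calr and Canx have the lowest values of the first block.

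The isolated arrays differed among themselves. Isolated replicate 2 gave the highest of the 6 signals for 18 members, isolated replicate 3 for 11, isolated replicate 1 for 0, and control replicate 3 for 3. The median over members of log2 signal minus the control mean was 0.16, 0.45 and 0.33 for isolated replicates 1, 2 and 3, against 0.0542, -0.0749 and 0.20 over all tested genes on the same arrays. For controls the member medians were -0.0447, -0.11 and 0.17. The signal of isolated replicate 2 was 2.72 times the mean of isolated replicates 1 and 3 for Derl3, 2.68 times for Creld2 and 1.95 times for Syvn1. It was 0.717 times for Xbp1 and 0.573 times for Ern1. Without isolated replicate 2, Creld2, Manf and Syvn1 were called, and the member median was 0.20 against 0.12 over all genes.

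Markers of other cell types were read beside these genes, since a change in cell makeup and a change within hepatocytes cannot be told apart in whole liver. For macrophages, stellate cells, endothelial cells and cholangiocytes, 0 markers were called by limma and the summed signals of the groups overlapped. Lrat, a stellate cell marker, read 105 to 136 in isolated mice and 71.3 to 103 in controls, without overlap (limma adjusted p 0.435). Cells that secrete heavily carry much ER. Of 9 plasma cell and B cell markers, 7 had probe sets and 2, Jchain and Mzb1, were tested. Neither was called, and the summed signal was 133 to 159 in isolated mice and 127 to 149.8 in controls, with isolated replicate 2 the lowest of the isolated arrays. Of 10 pancreatic acinar markers, 8 had probe sets, 2 were tested and 0 called by limma. Cpa1, a pancreatic carboxypeptidase, read 0.809 to 1.73 in isolated mice and 2.01 to 2.94 in controls, under the floor of 18.0 on the mean signal. Ctrl, also under the floor, went the other way, with all isolated arrays above all controls (means of 7.48 and 5.32). Cela1, the brightest acinar marker, read 870.4, 556 and 689.9 in isolated mice, against 691, 434 and 608 in controls, with overlapping groups. Cela3b, the other tested one, had a log2 change of 0.67 (limma adjusted p 0.743), also with overlap. The summed acinar signal was 633 to 937 in isolated mice and 547 to 729.7 in controls. Among adipocyte markers, 3 of the 5 with probe sets were brighter on isolated replicates 2 and 3 than on every control, and Cidec and Lep were not. Adipoq, which fat cells secrete, read 3.78, 59.5 and 54.8 in isolated mice, against 4.38, 8.48 and 15.6 in controls, and Fabp4 read 203, 300.3 and 404 in isolated mice, against 117, 202 and 157 in controls. Retn read 2.65, 20.0 and 42.2 in isolated mice, against 2.39, 2.78 and 3.88 in controls, and Cidec, a lipid droplet protein, read 20.5, 19.0 and 19.5 in isolated mice, against 19.9, 32.8 and 22.9 in controls. The summed signal of 5 adipocyte markers was 231 to 523 in isolated mice and 147 to 248 in controls, with 231, 399.6 and 523 for isolated replicates 1, 2 and 3. Of the 2 tested, Fabp4 and Cidec, 0 were called by limma. Fabp4 came close, with a log2 change of 0.90 (limma adjusted p 0.0578) and all isolated arrays above all controls. Cidec had a log2 change of -0.30 (limma adjusted p 0.847). Lep, a defining marker of fat cells, read 0.775 to 3.08 in isolated mice and 0.821 to 3.30 in controls. The part of fat in the result was not tested. With replicates 2 and 3 of the isolated group both left out, for their adipocyte signals, none of Creld2, Manf, Syvn1 and Hspa5 was called by limma (adjusted p 0.12 to 0.739, log2 changes of 0.32 to 0.73). In that fit the lone isolated sample is taken to vary as much as the controls do, and 3 members were higher and 2 lower at an unadjusted p under 0.05.

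Further genes of the same pathways gave 2 calls higher, or 2.02%, and 2 lower among 99 tested of 108 listed. Of all tested genes, 0.901% were called higher and 0.847% lower. The median log2 change of the further genes was 0.15, against 0.052 over all tested genes. These lists were chosen with earlier results of these data known. In folding and oxidation, Hspa13, an HSP70 relative of the microsomal membrane, was the 1 call of 16. Its signals were 598, 1066 and 886 in isolated mice, against 384, 382 and 431 in controls. It rose 2.07-fold without overlap, with a log2 change of 1.05 ± 0.19 (SE, limma adjusted p 0.0033). In export from the ER, Sec23b, a coat protein of COPII vesicles, was the 1 call of 16. Sec23b read 609, 1016 and 922 in isolated mice, against 381, 346 and 407 in controls, a 2.19-fold rise with a log2 change of 1.13 ± 0.18 (SE, limma adjusted p 0.00129). The groups did not overlap for Sec23b. In the 4 other lists apart from the ATF4 arm, limma made 0 calls. Their counts at an unadjusted p under 0.05 stand against 7.94% of all tested genes higher. Glycan processing had 13 tested genes, of which 2 were higher at an unadjusted p under 0.05, and Ostc, of the oligosaccharyltransferase, came closest with a log2 change of 0.58 and an adjusted p of 0.0547. Of 17 further degradation genes, 3 were higher at an unadjusted p under 0.05, with Ubxn4 at a log2 change of 0.59 and an adjusted p of 0.113 in limma. Of 19 further translocation genes, 7 were higher at an unadjusted p under 0.05, with Srp19, of the signal recognition particle, at a log2 change of 0.66 and an adjusted p of 0.0542. In the translocation list 3 genes had an adjusted p between 0.05 and 0.1 in limma, in the glycan list 1, and in the degradation and ATF6 lists 0. Of 8 genes for ATF6 relatives and their processing, 1 was higher at an unadjusted p under 0.05, Atf6b, at a log2 change of 0.55 with an adjusted p of 0.362.

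The list for the ATF4 arm, the branch downstream of Eif2ak3, held 2 genes that fell and 0 that rose of 10 tested, with a median log2 change of -0.0229. Chac1, a glutathione-degrading enzyme, read 81.0, 29.5 and 61.7 in isolated mice, against 119, 122 and 176 in controls. All isolated arrays lay below all controls, with isolated replicate 2 the lowest, and Chac1 fell by 1.33 ± 0.28 on the log2 scale (SE, limma adjusted p 0.0143). Cebpb, a transcription factor also induced by other signals in liver, read 421, 384 and 679 in isolated mice, against 1067, 1037 and 1211 in controls. It fell by 1.20 ± 0.19 on the log2 scale (SE, limma adjusted p 0.00084), without overlap. At an unadjusted p under 0.05, 3 of the 10 tested genes were lower and 1 was higher, against 4.4% and 7.94% of all tested genes. Besides Chac1 and Cebpb, the lower one was Asns, named after its values were seen. Asns read 12.2, 26.5 and 28.9 in isolated mice, against 30.2, 65.2 and 68.5 in controls, without overlap. Its log2 change of -1.20 ± 0.36 (SE, limma adjusted p 0.108) did not pass. The higher one, named after its values were seen, was Ddit3 (CHOP), a transcription factor of the stress response. Ddit3 read 103, 195 and 92.5 in isolated mice, against 72.0, 70.7 and 71.8 in controls, without overlap, and its log2 change of 0.77 ± 0.24 (SE, limma adjusted p 0.143) did not pass. Whether the ATF4 list differed from the members was not tested.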

How the data were processed

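Liver RNA of 3 isolated and 3 control samples was hybridised to Affymetrix arrays. The intensity values deposited by the authors are MAS5 signals, per the submitters' processing notes, and the scaling target was not given in the sources used here. Of 45101 probe sets, 64 controls were set apart. After adding 2 and taking log2, the upper 50% by mean over all 6 arrays were tested (floor 4.32). A model with a mean per group was fitted in limma 3.58.1 (R 4.3.3), with eBayes and an intensity trend, two-sided, and p was adjusted over all 22519 probe sets by Benjamini-Hochberg. A gene was represented by its tested probe set with the highest mean and a single symbol in the platform annotation. Probe sets with several symbols were not used, including 1 that also names Sec61b. All members were named, and of each further list up to 4 called genes, or the 1 with the smallest p. Ddit3 and Asns were named besides, after their values were seen. Of the 108 further genes, 4 had no single-symbol probe set and 5 did not pass the floor. Members and lists were chosen with earlier results of these data known.

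The procedure was tested on simulated data, and 3 arrays per group limit the precision. The sample numbers are not stated to pair isolated with control samples, and the main fit used no pairing. Deviations of same-numbered isolated and control samples correlated at 0.00491 to 0.0436, and 3 such correlations cannot settle whether samples were paired. Promoter windows came from RefSeq (GRCm38.p6). Alternatives covered pseudocount, filter, normalization, variance model, array weights, replicate block, probe set rule, threshold and arrays left out. Figures were drawn with matplotlib 3.10.9.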

Additional observations from a re-analysis of the deposited data

How the results depend on the processing

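No called member changed sign under any of the 19 alternatives, and 0 members were called lower in any of them. Manf kept its call except without the intensity trend and with isolated replicates 2 and 3 both left out. Without a filter more probe sets are tested and SEs change too, from 0.27 to 0.30 for Creld2 and from 0.16 to 0.14 for Edem1. The 4 calls among members numbered 2 without a filter and 1 with quantile normalization (adjusted p 0.0621 for Syvn1, 0.128 for Creld2 and 0.0585 for Hspa5). They numbered 0 without the intensity trend (11 at an unadjusted p under 0.05 in limma), 0 without isolated replicates 2 and 3 (3 unadjusted) and 3 to 5 with 1 array left out. Dnajb9 and Edem1 were called in some alternatives, such as the robust trend (adjusted p 0.037 for both), and Edem1 had a log2 change of 0.31 with its probe sets averaged. With the replicate number as a replicate block, 7 members, 7 further genes and 265 probe sets were called higher, though the numbers are not stated to pair the samples. Calls higher among further genes, 2 in all, numbered 7 in the upper 25% of probe sets, 6 with median centring, a robust trend or an adjusted p threshold of 0.1, 5 with probe sets averaged, 0 without the intensity trend (12 unadjusted), 0 without isolated replicates 2 and 3 (4 unadjusted) and 2 to 4 with 1 array left out. Calls lower, also 2, numbered 1 without a filter or with a robust trend, 0 without the intensity trend (3 unadjusted) and 1 to 3 with 1 array left out. Over all probe sets, 174 higher and 193 lower calls became 81 and 101 without a filter, 15 and 16 without the intensity trend, and 97 to 200 and 82 to 246 with 1 array left out. Higher calls numbered 90 without isolated replicates 2 and 3 and 303 at a threshold of 0.1. The filter and the left-out arrays change both what is tested and the SEs, and the cause of the moved counts was not tested. Of 608 member values, 27 from 10 members changed sign without a call in either fit.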
